A study of Mus musculus with 6 samples.

Results

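The aminoacyl-tRNA synthetases are the enzymes that attach each amino acid to its transfer RNA, the step that makes tRNAs usable by the ribosome. The members were chosen by gene name: 34 genes, of which 20 encode enzymes or subunits of the cytosol and 14 encode enzymes of the mitochondrion, whose symbols end in 2. All 34 were on the array, with 42 probes among 34950 gene names, and 33 of them gave a signal that could be tested. The remaining member, Nars2, had 1 probe, which was well above background on none of the 6 arrays.

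Cytosolic translation and mitochondrial translation use separate sets of tRNAs, and most amino acids have a synthetase gene for each compartment. Gars and Kars each encode both forms from 1 gene. Several cytosolic synthetases, joined by the scaffold proteins Aimp1, Aimp2 and Eef1e1, form a large complex, while the others act free of it. Many cytosolic synthetase genes are known targets of ATF4, the transcription factor that cells make when uncharged tRNA or another stress leads to phosphorylation of the initiation factor eIF2. Red cell precursors make globin in the cytosol and haem partly in the mitochondrion.

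The data were 6 single-colour Agilent arrays of RNA from mouse fetal liver erythroid progenitors taken at E14.5 (strain not stated in the labels). In 3 samples, called shExosc8, a retrovirus carried a short hairpin RNA against Exosc8, a subunit of the RNA exosome, the complex that degrades and trims RNA from its 3′ end. In the other 3, called shControl, the hairpin was directed against luciferase, which mouse cells lack. Cells of both groups were isolated by kit, infected in polybrene, and grown for 3 days with 0.5 U/ml erythropoietin, 1 µM dexamethasone and medium conditioned by cells that secrete kit ligand, and RNA came from 1000000 cells a sample. The labels name no step that selects infected cells, so each sample is treated as a bulk population. Whether the replicates are separate cultures or litters is likewise unstated, and the p-values then cover only how much these 6 samples vary, possibly for technical reasons.

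Exosc8 itself was at 40.4%, 39.97% and 57.4% of the control mean on the 3 shExosc8 arrays, against 98.5%, 97.8% and 103.8% on the control arrays, a log2 fold change of -1.14 with a standard error of 0.16 (adjusted p = 0.00554). No spot was saturated. On shControl replicate 2, 67.3% of spots passed the scanner's background test, and on the other 5 arrays 43.1% to 49.3% did. Of 18228 genes tested, 2923 rose, which is 16% of them, and 2516 fell, which is 13.8%. The median log2 fold change of all genes was -0.06. All shExosc8 arrays lay in slide row 2 and all shControl arrays in slide row 1 of the same slide, so an effect of the row cannot be told apart from that of the hairpin.

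The markers of the labelled cell type were present, and markers of other blood cells also differed between the groups. Of 11 measured erythroid markers, 4 rose (Alas2, Epb42 and Slc4a1 among them) and 1, Epor, fell, with a summed level of 123% to 188% of the control mean in shExosc8 against 88.2% to 107.1% in shControl. All 13 megakaryocyte markers rose, with Gp1bb, Selp, Vwf and Itga2b at the smallest p, and their summed level was 801.7% to 1144% of the control mean in shExosc8 against 85.9% to 125% in shControl. Of 13 neutrophil and monocyte markers 12 rose, led by S100a8, Ly6c1, Lcn2 and Cebpe, with a summed level of 228% to 289% against 92.3% to 106.6%. Of 7 macrophage markers 6 rose (Tyrobp, Lyz2, Ctss and Csf1r first, summed 277% to 320%, against 88.9% to 112%), while Vcam1 was above background on no array. Of the 5 measured markers of mast cells and basophils, 4 rose (Cpa3, Hdc, Cma1 and Tpsb2, summed 259% to 425%, against 86.2% to 123%), with Tpsab1, Fcer1a and Ms4a2 above background on no array. Of 6 hepatocyte markers 4 rose (Apoc1, Fgb, Ahsg and Trf, summed 255% to 384%, against 75.4% to 145% in shControl), with Apoh and Fgg above background on no array. Fgb could be tested only through shExosc8, being well above background on 1 control array. Of the whole hepatocyte list, 6 to 7 genes were above background on a shExosc8 array and 5 to 9 on a control array. Of 5 lymphoid markers 1 rose, Vpreb3 (next Nkg7, Cd79b and Cd3e, summed 124% to 129%, against 96.2% to 106.5%), with Cd3d and Ms4a1 among those above background on no array. Vpreb3 and Cd79b could likewise be tested only through shExosc8, each being well above background on 2 control arrays. The part of these cell types in the synthetase values was not tested. In bulk RNA, fewer cells of a type and less RNA per cell cannot be told apart.

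The synthetase genes mostly lay lower in shExosc8 than in shControl, by modest amounts, with a single large exception. Of 33 measured members 8 fell, 1 rose and 24 did not pass the threshold, which is an adjusted p under 0.05. The called share was 27.3%, against 29.8% of all genes tested, so the members were not called more often than genes at large. In the authors' deposited table none of the 33 passed the same threshold, against 7.25% of all genes by the same probes. There 10 of the 33 (30.3%) had an unadjusted p under 0.05. The share of all genes under that cut-off was not computed, so whether 10 is many cannot be said. The fold changes of 26 members (78.8%) were below 0, against 55.1% of all genes. The genes that fell were Hars, Vars, Farsa and Rars in the cytosolic set and Wars2, Cars2, Lars2 and Iars2 in the mitochondrial set. The gene that rose was Fars2, which encodes the mitochondrial enzyme that charges tRNA with phenylalanine. The values of the 3 arrays of a group did not overlap those of the other group for 19 members (57.6%), against 51.6% of all genes.

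**Figure D1:**
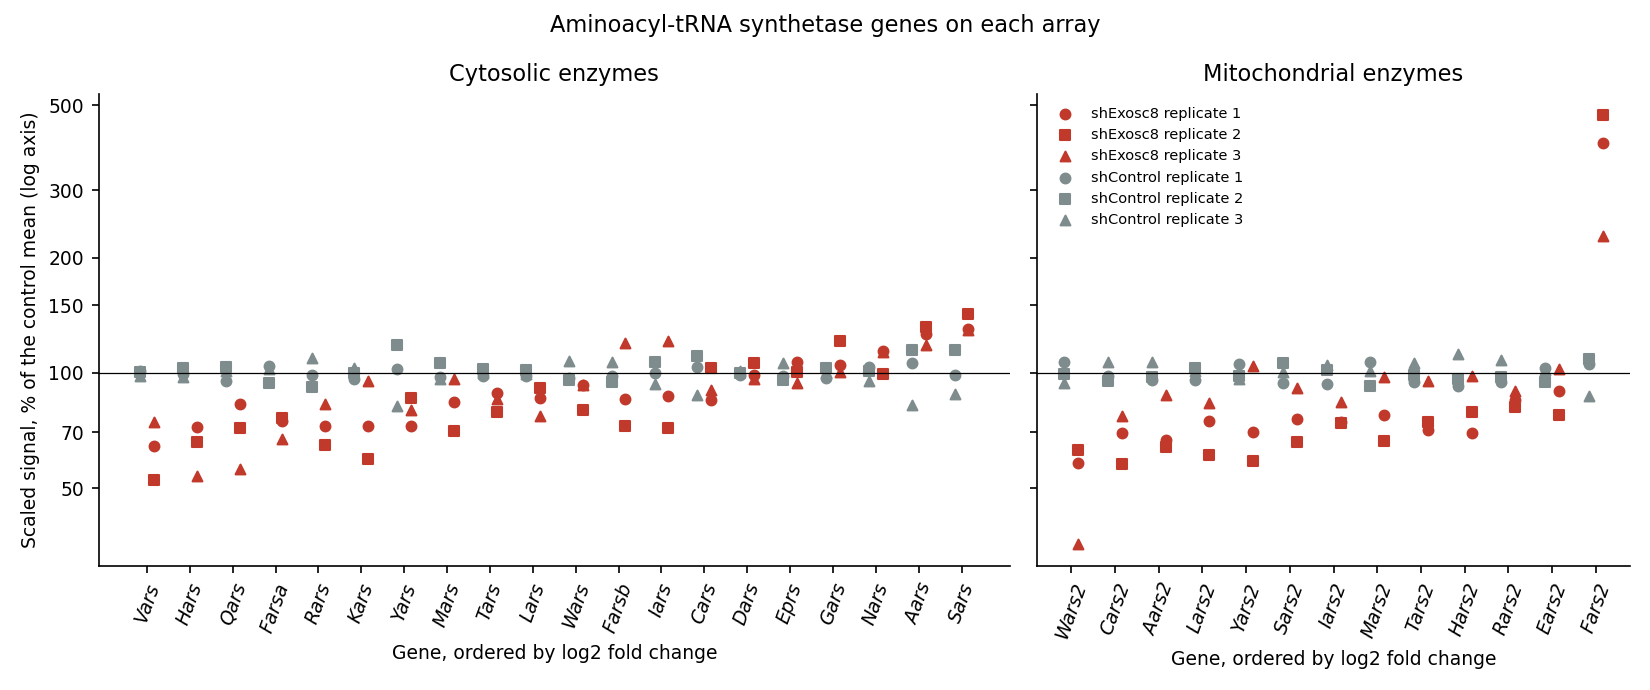
Scaled signal of each measured synthetase gene on each array as a percentage of its mean over the 3 control arrays (log axis), with cytosolic enzymes left, mitochondrial enzymes right, genes ordered by fold change, and 1 point for each array. Most red points (shExosc8) lie below 100%, and Fars2 stands alone at 399%, 471% and 227%.

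The sequences that carry these measurements are short stretches of the transcripts. Of the probes behind the 8 falls, 3 are shown to identify what was read, 1 cytosolic and 2 mitochondrial. Each has 60 bases and is written 5′ to 3′ with no base singled out. The positions are those of the array files (mm9). Cars2 was read at chr8:11516152-11516211 on the minus strand, and the other 2 bind across a longer genomic span, chr11:35633429-35634605 for Rars and chr1:187111041-187111948 for Iars2, both on the minus strand. No annotation of mm9 was used here, so exons are not named.
Rars probe: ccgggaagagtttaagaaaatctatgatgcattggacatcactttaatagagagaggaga
Cars2 probe: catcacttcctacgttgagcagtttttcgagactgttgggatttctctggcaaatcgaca
Iars2 probe: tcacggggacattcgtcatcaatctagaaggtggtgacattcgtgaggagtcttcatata

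Among the cytosolic enzymes 4 of 20 fell (20%, against 13.8% of all genes) and none rose by this test, limma with Benjamini-Hochberg adjustment. At an unadjusted p under 0.05, Sars was the only cytosolic member above 0, and it passed the adjusted threshold in 5 of the 18 alternative settings. The median log2 fold change of the 20 was -0.21. The 2 largest falls were close in size, in Vars and Hars.

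Vars, which charges tRNA with valine, was at 64.4%, 52.5% and 74.6% of the control mean on shExosc8 arrays 1 to 3 and at 101%, 101% and 98.2% on the control arrays. Every shExosc8 array was below every control array, with replicate 2 lowest. The log2 fold change was -0.66 with a standard error of 0.15 (adjusted p = 0.0211).

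Hars, the enzyme for histidine, was at 72.2%, 65.9% and 53.7% against 99.4%, 103% and 97.6%. The groups again did not overlap, but here replicate 3 was the lowest. The log2 fold change was -0.66 (standard error 0.13, adjusted p = 0.0167). Hars2, its mitochondrial counterpart, lies beside it in the genome and is read in the opposite direction. Hars2 had a log2 fold change of -0.29 (adjusted p = 0.197), with overlapping groups.

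Farsa encodes the alpha subunit of the cytosolic enzyme for phenylalanine. Its brightest probe was at 74.9%, 76.3% and 67.4% against 104.0%, 94.0% and 102%, a log2 fold change of -0.46 (standard error 0.11, adjusted p = 0.0230). A second Farsa probe had scaled log2 signals of -1.24, -1.37 and -0.99 in shExosc8 and -0.74, -0.83 and -0.83 in shControl. Another Farsa probe had -4.76, -4.74 and -3.79 against -3.68, -3.57 and -3.42. In both the groups stood apart in the same direction, with log2 fold changes of -0.40 and -0.88, but neither passed the threshold over all probes (adjusted p = 0.0609 and 0.0585). Farsb encodes the beta subunit of the same enzyme, and it had -0.14 (adjusted p = 0.602), with shExosc8 arrays at 85.6%, 72.8% and 119.9%. The difference between the subunits was not tested.

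Rars, the enzyme for arginine, was at 72.7%, 64.7% and 82.8% against 99.1%, 92.2% and 109.5%, a log2 fold change of -0.45 (standard error 0.13, adjusted p = 0.0467). The gap between the highest shExosc8 and the lowest control array was narrower than in Vars. In the test over all probes rather than 1 probe a gene, Rars stood at an adjusted p of 0.0504.

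A pair of cytosolic genes just missed the threshold in opposite directions. Qars, which charges tRNA with glutamine, was at 83.1%, 71.8% and 56.2% against 95.1%, 104.0% and 101%, without overlap, at a log2 fold change of -0.53 (adjusted p = 0.0514). Sars, the enzyme for serine, was at 130.0%, 142% and 130% against 98.8%, 115% and 88.3%, also without overlap, at 0.42 (adjusted p = 0.0515). Without scaling between arrays the Sars value was -0.08, so its direction rests on the scaling.

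Of the other cytosolic members, Aars had a log2 fold change of 0.32 and did not overlap between groups (adjusted p = 0.140). It was at 126%, 131% and 118% against 106%, 115% and 82.3%. A second Aars probe was too dim to test, being well above background on 2 control arrays and on no shExosc8 array. Its scaled log2 signals were -7.24, -8.76 and -8.93 against -7.30, -6.35 and -9.11. These overlap, with a difference of -0.73, in the opposite direction. Kars had -0.42, Yars -0.33, Mars -0.27, Tars -0.25, Lars -0.24, Wars -0.18, Farsb -0.14, Iars -0.13 and Cars -0.11. Nars and Gars each had 0.12, and Dars and Eprs each had 0.01. The 95% intervals of Dars and Eprs ran from -0.22 to 0.23 and from -0.24 to 0.26.

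**Figure D2:**
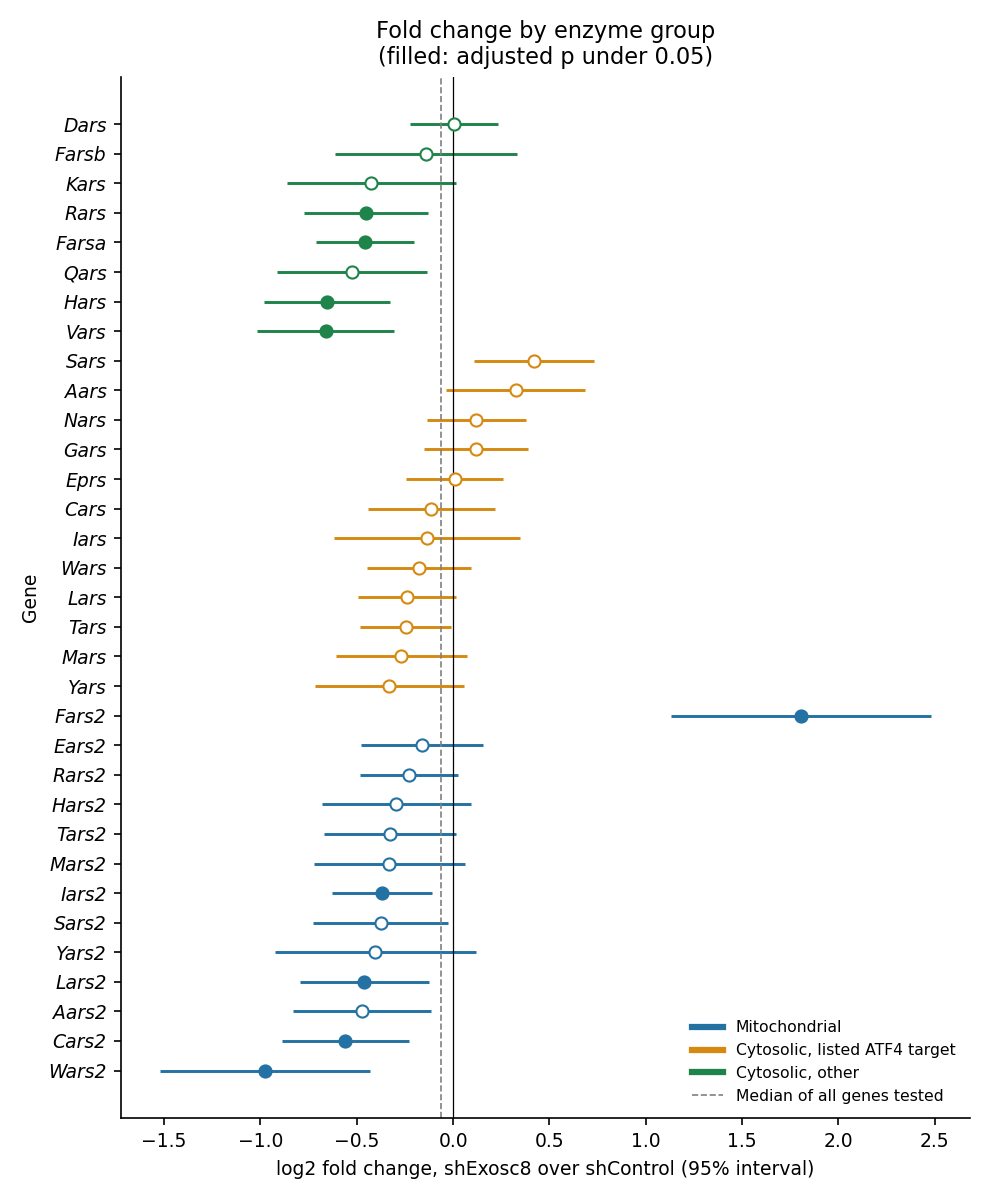
Log2 fold change (shExosc8 over shControl) of the 33 measured synthetase genes with 95% intervals from limma, by enzyme group, filled where the adjusted p was under 0.05. The 4 filled cytosolic genes, Vars, Hars, Farsa and Rars, all belong to the 8 that are not listed as ATF4 targets, and the dashed line is the median of all genes tested, -0.06.

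The cytosolic enzymes were also divided by a list of known ATF4 targets, which holds Aars, Cars, Eprs, Gars, Iars, Lars, Mars, Nars, Sars, Tars, Wars and Yars. None of these 12 passed the threshold in either direction in the limma test (1 was above 0 and 1 below 0 at an unadjusted p under 0.05, Sars and Tars). With the percentile taken over all probes 3 of the 12 fell (Lars, Tars and Yars), and without scaling 5 did. Their median log2 fold change was -0.12, and 7 of 12 were below 0. The other 8, Dars, Farsa, Farsb, Hars, Kars, Qars, Rars and Vars, held all 4 cytosolic falls (50%, against 13.8% of all genes), and their median was -0.46. In the same 2 settings 5 and 6 of these 8 fell. On the single arrays the medians of the 8 were -0.44, -0.54 and -0.35 in shExosc8 against -0.01, 0.00 and 0.02 in shControl. Those of the 12 were -0.14, -0.07 and -0.07 against -0.02, 0.07 and -0.06. The 8 therefore stood apart from the controls on every shExosc8 array, by a wider margin than the 12 did. Relative to the median of all genes, the 8 lay between -0.58 and -0.33 in the 18 alternative settings, and the 12 between -0.13 and 0.04. The difference between the lists was not tested.

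The cytosolic genes were further divided by membership of the multisynthetase complex. Of its 8 enzymes (Dars, Eprs, Iars, Kars, Lars, Mars, Qars and Rars) 1 fell, Rars (12.5%, against 13.8% of all genes), and the median was -0.26. Of the 12 free cytosolic genes 3 fell (25%), and the median was -0.16. The difference was not tested. Synthetases also fall into structural class I and class II, named for the fold of the catalytic domain, and this division was made after the values were seen. Among 17 class I genes of both compartments all 17 fold changes were below 0 and 6 fell (Rars, Vars, Cars2, Iars2, Lars2 and Wars2), against 55.1% below 0 and 13.8% that fell among all genes. The count of 6 became 0 without shExosc8 replicate 1 or any 1 control array, 2 without shExosc8 replicate 2, 9 without shExosc8 replicate 3 and 14 without scaling. Among 15 measured class II genes 9 were below 0, 2 fell (Hars and Farsa) and 1 rose (Fars2). The count of 2 became 0 without any 1 control array, 1 without shExosc8 replicate 1, 7 without shExosc8 replicate 3 and 8 without scaling. Eprs carries an activity of each class and was left out of both counts.

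Among the mitochondrial enzymes 4 of 13 measured genes fell (30.8%, against 13.8% of all genes) and 1 rose (7.69%, against 16% of all genes). The median log2 fold change was -0.37, and 12 of 13 values were below 0. Fars2 was the exception.

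Fars2 was at 399%, 471% and 227% of the control mean on shExosc8 arrays 1 to 3 and at 106%, 109% and 87.0% on the control arrays. The lowest shExosc8 value was more than double the highest control value, and replicate 3 was nearest to the controls. The fold change was 3.50, a log2 fold change of 1.81 with a standard error of 0.28 (adjusted p = 0.00703). It passed the threshold with each array left out in turn. It did not pass with the slide column as a block (1.61, adjusted p = 0.0911), a fit that leaves 1 residual degree of freedom, nor in the authors' deposited table (1.71, adjusted p = 0.0623). Within the 2 slide columns that held both groups, the difference was 2.16 and 1.06. The single Fars2 probe lies at chr13:36629402-36629461 (mm9, plus strand).

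Fars2 starts 286 bases from Lyrm4, a gene for an iron-sulfur cluster assembly factor of the mitochondrion, and the 2 are read in opposite directions (RefSeq, GRCm38.p6). Lyrm4 was looked at after the values were seen. It was at 154%, 164% and 121% against 104%, 100.0% and 95.8%, without overlap, a log2 fold change of 0.54 (adjusted p = 0.0332). Rpp40, a subunit gene of the tRNA-trimming enzyme RNase P which lies on the far side of Lyrm4, fell by 0.78 (adjusted p = 0.0442). The 250 bases before the Fars2 start, chr13:36117393-36117642 on the plus strand (GRCm38.p6), are shown because they lie between the starts of 2 genes that both rose. They contain no match to TGATGNAA, the motif described with the ATF4 targets.
Fars2 upstream: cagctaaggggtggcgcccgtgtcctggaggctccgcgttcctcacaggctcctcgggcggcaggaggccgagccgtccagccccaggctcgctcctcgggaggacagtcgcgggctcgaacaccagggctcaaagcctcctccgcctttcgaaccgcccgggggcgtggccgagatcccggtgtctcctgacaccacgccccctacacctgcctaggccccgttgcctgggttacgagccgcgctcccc

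Wars2, the mitochondrial enzyme for tryptophan, had the lowest value of any member. Its brightest probe was at 58.1%, 63.1% and 35.7% against 107.1%, 99.3% and 94.0%, a log2 fold change of -0.98 (standard error 0.23, adjusted p = 0.0236). A second, dimmer Wars2 probe had scaled log2 signals of -5.80, -5.93 and -6.24 against -5.44, -5.26 and -6.17. There the groups overlapped, and the fold change was -0.36 (adjusted p = 0.311). Averaged over both probes, Wars2 had -0.67 and no longer passed (adjusted p = 0.0577).

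Cars2, for cysteine, was at 69.6%, 58.0% and 77.4% against 98.3%, 95.5% and 106.5%, a log2 fold change of -0.56 (standard error 0.14, adjusted p = 0.0275). A second Cars2 probe had -0.51 and also passed over all probes (adjusted p = 0.0390). Cars2 was the only member with several tested probes of which more than 1 passed.

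Lars2, for leucine, was at 75.2%, 61.1% and 83.3% against 95.9%, 103% and 101%, a log2 fold change of -0.46 (standard error 0.14, adjusted p = 0.0497). Iars2, for isoleucine, was at 74.4%, 74.2% and 84.2% against 93.7%, 102% and 105%, a log2 fold change of -0.37 (standard error 0.11, adjusted p = 0.0460). In neither gene did the groups overlap, and in both replicate 3 was nearest to the controls. A second Iars2 probe had scaled log2 signals of -3.66, -3.76 and -3.16 against -3.52, -3.30 and -3.20, which overlap, with a fold change of -0.19 (adjusted p = 0.472). Over all probes the Iars2 probe that fell stood at an adjusted p of 0.0510 and the Lars2 probe at 0.0535.

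The other 8 measured mitochondrial genes lay between -0.47 and -0.16. Aars2, for alanine, had -0.47 (adjusted p = 0.0558) with groups that did not overlap. Yars2 had -0.40, Sars2 -0.38, Mars2 -0.33, Tars2 -0.33, Hars2 -0.29, Rars2 -0.23 and Ears2 -0.16. The groups of Sars2 and Rars2 also did not overlap, and the others did. A second Tars2 probe had -0.41 and did not pass either (adjusted p = 0.161).

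**Figure D3:**
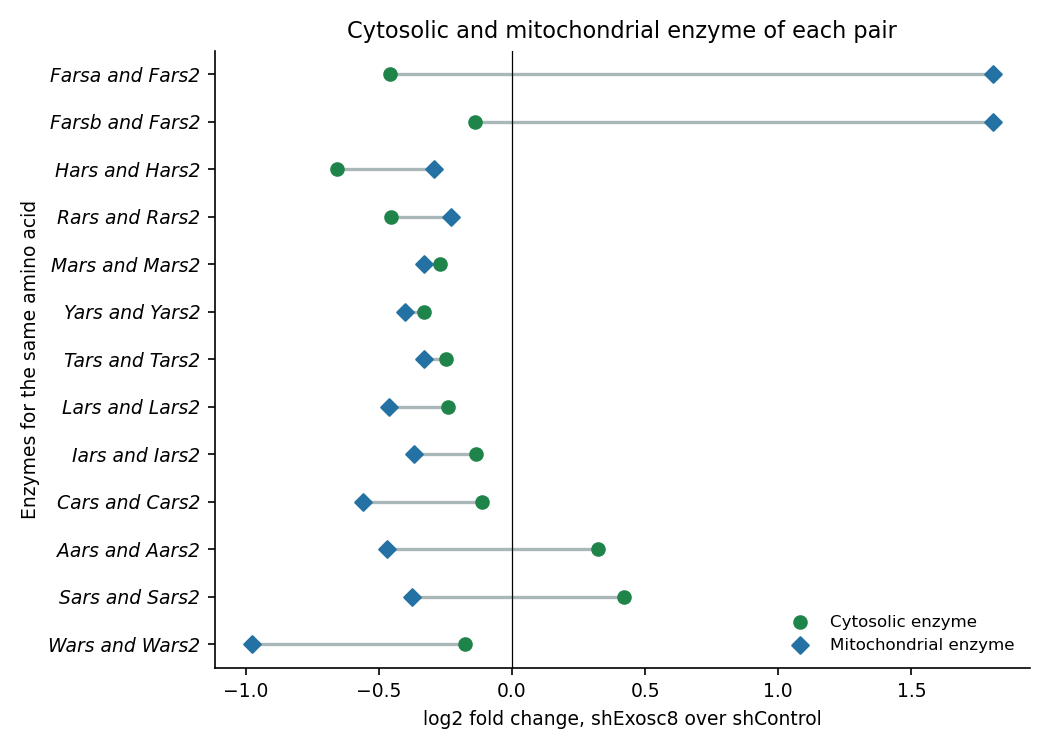
Log2 fold change (shExosc8 over shControl) of the cytosolic (circles) and mitochondrial (diamonds) enzyme for the same amino acid, ordered by the gap between them. The mitochondrial enzyme lies lower in 9 of the 11 pairs of like-named genes, while Fars2 lies above both cytosolic phenylalanine subunits. For Tars, Yars and Mars the gap is only -0.08, -0.07 and -0.06.

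Set side by side, 11 amino acids had a measured like-named gene in each compartment. The mitochondrial gene had the lower fold change in 9 of these pairs and the higher in 2, Hars with Hars2 and Rars with Rars2. Among the 9, the difference was only -0.08 for Tars with Tars2, -0.07 for Yars with Yars2 and -0.06 for Mars with Mars2. It was -0.23 for Iars with Iars2 and -0.22 for Lars with Lars2. For each array the gap was taken as the log2 signal of the mitochondrial gene minus that of the cytosolic gene, relative to the mean gap in the controls. For single genes the groups did not overlap in 51.6% of all genes tested, and no such share was computed for gaps of other gene pairs. In 5 of the 11 pairs the gaps of the groups did not overlap. They were lower in shExosc8 for Wars and Wars2 (by a mean of -0.80), Sars and Sars2 (-0.80), Aars and Aars2 (-0.80) and Cars and Cars2 (-0.45), and higher for Rars and Rars2 (0.23). For Sars and Sars2 the gaps were -0.77, -1.11 and -0.51 on the shExosc8 arrays and -0.07, -0.11 and 0.19 on the control arrays. For Wars and Wars2 they were -0.68, -0.35 and -1.38 against 0.14, 0.05 and -0.19. With 3 arrays against 3, the exact two-sided permutation test cannot go below p = 0.1, which these 5 pairs reached, and the adjusted p over the 11 pairs was 0.22, so none passed. The gap of Fars2 was 2.26 to Farsa and 1.95 to Farsb.

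**Figure D4:**
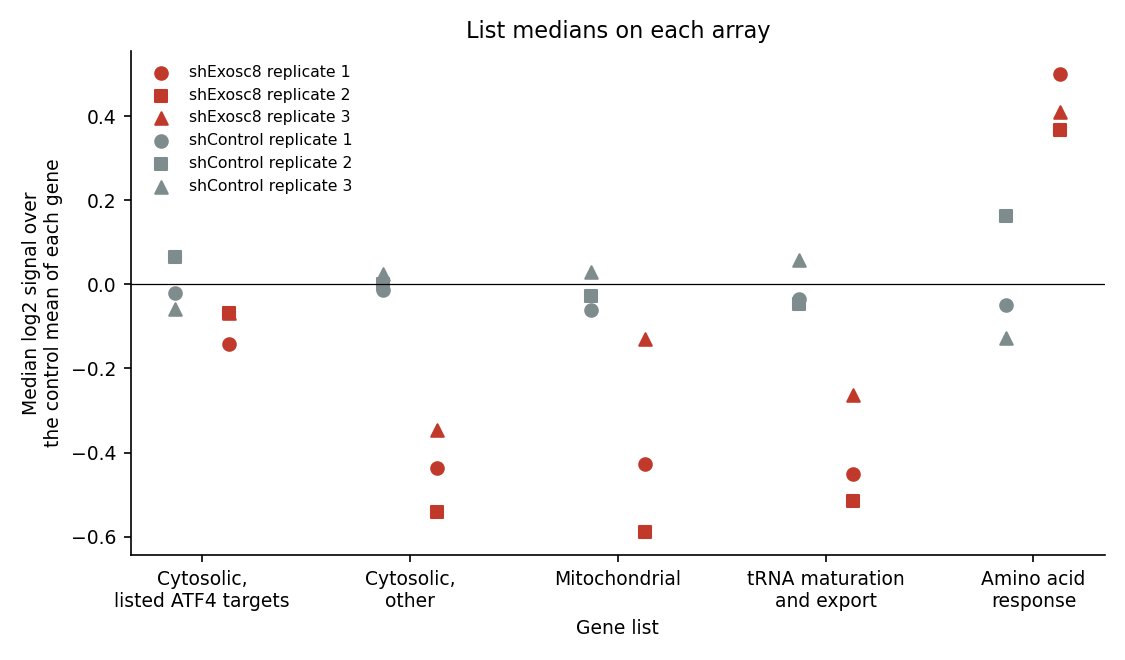
Median over each gene list of the log2 signal relative to the control mean of each gene, with 1 point for each array. Array 3 of shExosc8 lies nearest to the controls in the mitochondrial list (-0.13, against -0.43 and -0.59 on the other 2), and the amino acid response list is the one that lies above the controls.

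The arrays of a group did not move by equal amounts. The median of the 20 cytosolic genes was -0.22, -0.33 and -0.09 on shExosc8 arrays 1 to 3, and that of the 13 mitochondrial genes was -0.43, -0.59 and -0.13. On the control arrays these medians lay between -0.06 and 0.03. Leaving out single arrays moved the counts. Without shExosc8 replicate 3, 6 cytosolic and 10 mitochondrial genes fell. Without shExosc8 replicate 2 it was 3 and 1, and without shExosc8 replicate 1 it was 1 and 0. Without shControl replicate 1, 2 or 3 it was 0 and 0 each time. In these fits Fars2 rose every time, and each of the 8 falling genes kept a fold change below 0, as it must where the groups do not overlap. A fit without both shExosc8 replicate 3 and shControl replicate 2, added once the values were known, gave 5 cytosolic and 7 mitochondrial falls. Within slide columns 2 and 3, each of which held 1 array of each group, all 9 called genes differed in the direction of the test. No other outcome was possible, because the groups did not overlap in any of the 9, so this is no check on slide position.

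The other genes that handle tRNA lay in the same direction as the synthetases. Of 4 synthetase genes outside the 34, Pars2, the mitochondrial enzyme for proline, fell by 0.56, and none of the others passed, Vars2 (-0.61) and Tarsl2 (-0.16) among them. Of 9 scaffold and synthetase-like genes 2 fell (22.2%, against 13.8% of all genes) and none rose. Sepsecs, which makes selenocysteine on its tRNA, had -0.67, and the complex scaffold Eef1e1 had -0.54. Dtd2 (-0.46) and the scaffold Aimp2 (-0.29) came next and did not pass. Of 26 measured genes of tRNA maturation and export 7 fell (26.9%, against 13.8% of all genes) and none rose, and 25 were below 0. The count of 7 became 0 without shControl replicate 1, 1 without shControl replicate 2 or 3 or shExosc8 replicate 1, 3 without shExosc8 replicate 2, 15 without shExosc8 replicate 3 and 23 without scaling. Those of the main test included Gatc (-0.73) and Qrsl1 (-0.56), 2 subunits of the mitochondrial amidotransferase that makes glutaminyl-tRNA, Trmt10c (-0.52), a subunit of mitochondrial RNase P, and Mtfmt (-0.56), which formylates the mitochondrial initiator tRNA. The median of the 26 was -0.36, near that of the mitochondrial synthetases.

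Of 13 elongation factor and termination factor genes 1 fell (7.69%, against 13.8% of all genes) and none rose. It was Tufm (-0.46, adjusted p = 0.0247), the mitochondrial factor that carries charged tRNA to the ribosome. Tsfm (-0.35), Gfm1 (-0.32) and Etf1 (-0.29) did not pass. The median of the 13 was -0.22, close to that of the cytosolic synthetases. Across these 4 lists the limma test gave 0 rises, 0 of 52 genes were above 0 at an unadjusted p under 0.05, and none rose in any of the 18 alternative settings. The 1, 2 and 1 falls among the other synthetases, the scaffold list and the elongation list were 3, 5 and 4 without shExosc8 replicate 3, and 0 in each list without any 1 of the other 5 arrays.

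The amino acid response list holds the kinases that phosphorylate eIF2, ATF4 and other ATF4 targets, and its values lay mostly above 0. Of 37 measured genes 17 rose (45.9%, against 16% of all genes) and 3 fell (8.11%, against 13.8%), with a median log2 fold change of 0.39. Values below 0 were seen in 12 of the 37 (32.4%, against 55.1% of all genes). Without scaling 15 rose and 9 fell, and the median was -0.11, which is 0.45 above that of all genes in that setting. With the slide column as a block 8 rose and none fell, and without shExosc8 replicate 3 it was 17 and 5. The smallest p values belonged to Ndrg1 (2.83), Cebpg (2.01), Atf3 (3.82), Ddit3 (2.55), Atf5 (2.77) and Slc7a11. Cebpg, Atf3, Ddit3 and Atf5 encode transcription factors of the stress response. Slc7a11, the cystine transporter, was not well above background on any control array and was at least 9.63-fold higher in shExosc8 (adjusted p = 0.00122), where the bound sets the shExosc8 mean against the lowest signal well above background on each control array. The 3 that fell, named after their values were seen, were Eif2ak4 (-0.81), which encodes the kinase GCN2 that senses uncharged tRNA, Eif2ak2 (-1.52), the kinase that senses double-stranded RNA, and Psph (-0.80), an enzyme of serine synthesis. The other eIF2 kinase genes of the list went the other way. Eif2ak1 rose by 1.35 (adjusted p = 0.00502), and Eif2ak3 had 0.37 and did not pass (adjusted p = 0.158). Also outside the naming rule, Atf4 itself rose by 0.73 (adjusted p = 0.0465). Asns, the asparagine synthetase gene and a familiar ATF4 target that is no tRNA enzyme, had 0.17 (adjusted p = 0.330). Apart from Psph, no other gene of amino acid synthesis on the list passed, and these too were named after their values were seen. Aldh18a1 had -0.78, Cth -0.80, Psat1 -0.33, Cbs -0.27, Phgdh -0.22, Gpt2 -0.14 and Shmt2 -0.11. Above 0 were Pycr1 (0.50) and Got1 (0.16). The members and this list share the same arrays, and the difference between them was not tested.

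**Figure D5:**
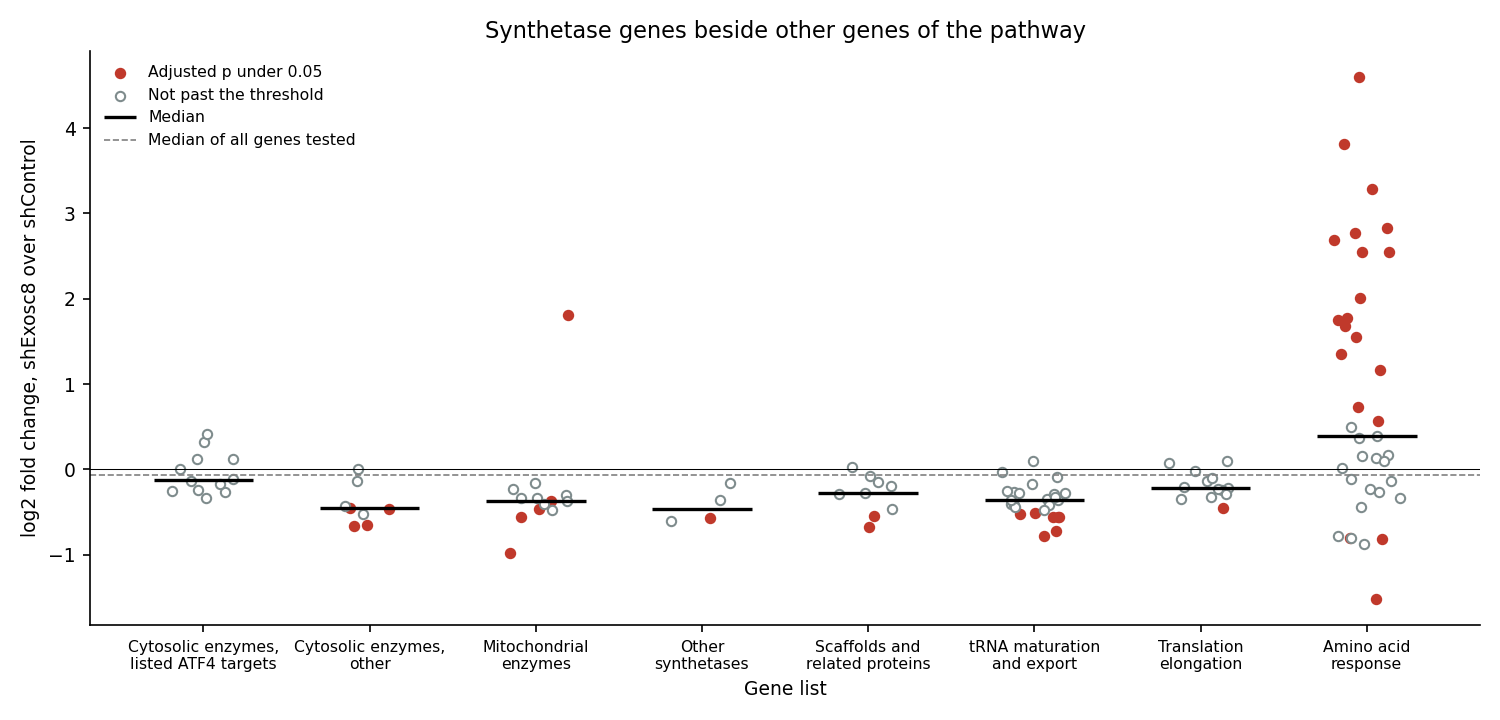
Log2 fold change (shExosc8 over shControl) of each measured gene of 8 lists, red where the adjusted p was under 0.05, with black bars at list medians and a dashed line at the median of all genes. The 12 listed ATF4 target synthetases centre on -0.12, while 17 of 37 amino acid response genes rose (the highest point, Slc7a11, is a fitted value whose fold is known only as a lower bound).

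ATF4 acts with a C/EBP partner at a composite element, so the promoters were searched for the letters TGATGNAA on both strands. The windows were RefSeq's 250 bases before to 50 bases after each gene start (GRCm38.p6), which were matched for 26 of the 34 members. The motif was found in 5 of these 26, all of them listed ATF4 targets (Aars, Gars, Iars, Tars and Yars), in none of 13 mitochondrial genes and in none of 5 other cytosolic genes matched. Among all 27025 genes with a window, 4.51% held it. Of 32 matched genes of the amino acid response 9 held it, namely Atf3, Trib3, Chac1, Asns, Pycr1, Slc7a11, Vldlr, Nupr1 and Got1. Of these 9, 6 rose, beside 17 of the 37 measured genes of that list (45.9%) and 16% of all genes. Among the 6, Slc7a11 and Vldlr could be tested only through the shExosc8 arrays. They were well above background on 0 and 1 control arrays. None of the 5 synthetases rose (limma, with none of them above 0 at an unadjusted p under 0.05), and none of the 12 listed ATF4 target synthetases did. Whether the motif goes with a rise was not tested. The windows of the 5 are shown so that the element can be compared, 80 bases each, 5′ to 3′ on the strand of the gene, with the motif or its reverse complement in capitals. A match is a description of these letters and not a measured binding site.
Aars, chr8:111033670-111033749, plus strand, 112 bases before the start: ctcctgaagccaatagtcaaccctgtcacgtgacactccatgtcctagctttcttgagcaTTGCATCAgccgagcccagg
Gars, chr6:55037911-55037990, plus strand, 30 bases before: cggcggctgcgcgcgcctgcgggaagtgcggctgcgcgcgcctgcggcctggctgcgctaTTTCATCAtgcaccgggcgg
Iars, chr13:49682077-49682156, plus strand, 7 bases after: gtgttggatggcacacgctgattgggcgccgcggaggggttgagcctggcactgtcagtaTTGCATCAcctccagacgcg
Tars, chr15:11399654-11399733, minus strand, 15 bases before: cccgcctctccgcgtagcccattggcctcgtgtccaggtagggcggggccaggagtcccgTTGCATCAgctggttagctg
Yars, chr4:129189846-129189925, plus strand, 3 bases after: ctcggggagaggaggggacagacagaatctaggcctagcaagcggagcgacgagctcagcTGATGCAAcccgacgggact

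In Aars, Iars and Tars the window held the same 8 letters, TTGCATCA, and in Yars its reverse complement, TGATGCAA, while Gars held TTTCATCA. A second Aars match, 9 bases after the start, also read TTTCATCA. The fold changes of the 5 genes were 0.32 for Aars, 0.12 for Gars, -0.13 for Iars, -0.25 for Tars and -0.33 for Yars, which spread to both sides of 0. None of the 5 passed the threshold, and the spread of signs rests on the scaling, since without it the values were -0.17, -0.38, -0.63, -0.75 and -0.83 in the same order, all below 0.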

How the data were processed

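Per the file headers, the deposited spot intensities were written by Agilent's scanner software (Feature Extraction 10.7.3.1) after background subtraction and detrending within the array. Other columns held its flags for spots above background or outlying, per the file headers. The deposited series table held the same intensities, within 0.01%, and beside them log2 fold changes and p-values of the authors, for which the submitters' processing notes name limma. How those were normalized is not given in the sources used.

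Control spots, flagged outliers and 21 of 55681 probes were left out. Log2 signals were scaled by each array's 75th percentile over the 21615 probes well above background on all 6 arrays. A probe was tested if it passed the background flag on every array of either group, as 24836 did, and the brightest stood for each of 18228 genes. With several spots, the majority (or a tie) had to carry that flag. Differences were tested with limma 3.58.1 in R 4.3.3 (two-sided, Benjamini-Hochberg adjustment, threshold 0.05), a code checked on simulated data. The number of arrays limits the precision. Every member past the threshold, or whose probes disagreed, was given by array. Of each other list the 4 genes with the smallest p were named, and 6 of the amino acid response. The members and lists were chosen with earlier results of these data known. Of the 42 member probes, 40 had the same symbol by accession in a RefSeq table (GRCm38.p6), 1 (Mars) a newer symbol and 1 was not matched. The probe positions are mm9. Alternatives were other scalings, background corrections, filters and probe rules, blocks for replicate number and slide column, each array left out, and the authors' table. A few genes and 1 probe sequence are not reported here.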

Additional observations from a re-analysis of the deposited data

How the results depend on the processing

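The median of the cytosolic genes and that of the mitochondrial genes lay below the median of all genes in all 18 alternative settings, by 0.08 to 0.28 and by 0.20 to 0.47 on the log2 scale in size. Counts of calls moved far more, and the cause was not tested unless the setting itself shows it. In the order cytosolic falls then mitochondrial falls, with 4 and 4 in the main test, the 75th percentile over all probes gave 8 and 6, no scaling 11 and 11 (with 9167 genes changed), normexp background correction with the 75th percentile 4 and 2, the mean of all probes of a gene 4 and 2, no filter on dim probes 0 and 0 (1815 changed among more genes tested), the slide column as a block 0 and 0 (537 changed, 1 residual degree of freedom) and the authors' deposited values 0 and 0 (1321 changed). In the last 2 the count of mitochondrial rises was 0. Of the cytosolic genes 1, Sars, rose under both normexp settings, with probes above background on all 6 arrays, with the replicate block and with shExosc8 replicate 3 and shControl replicate 2 left out together, the last with 7 mitochondrial falls. The cytosolic median was -0.35 with the all-probe percentile and -0.71 without scaling, and the mitochondrial median was -0.87 without scaling. Leaving out 1 array gave 2355 to 8418 changed genes, 0 to 6 cytosolic falls and 0 to 10 mitochondrial falls. Rises made up 53.7% of the changed genes in the main test, against 37.1% with the all-probe percentile, 18.0% without scaling and 66.9% with normexp and the 75th percentile, and these settings put the median of all genes at -0.21, -0.56 and 0.04.

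Signs turned in 8 members, none of them past the threshold in the main test. Sars and Aars, at 0.42 and 0.32 there, turned without scaling alone, and the other 6 lay within 0.15 of 0. With the all-probe percentile Dars -0.14, Eprs -0.14, Gars -0.027 and Nars -0.024, with median centring Dars -0.043 and Eprs -0.040, without scaling Aars -0.17, Dars -0.49, Eprs -0.49, Gars -0.38, Nars -0.38 and Sars -0.078, with quantile normalization Dars -0.028, and in the authors' deposited values Dars -0.011. Leaving out 1 array put Dars between -0.035 and 0.034, Eprs between -0.035 and 0.055, Farsb between -0.34 and 0.019 and Iars between -0.34 and 0.037. The 9 called genes kept their direction in all 18 settings, and Fars2 kept its call in 16 of them, Hars in 12, Vars and Farsa in 11, Cars2 in 10, Wars2 in 9, Rars in 8, Lars2 in 7 and Iars2 in 5. Leaving out arrays could not have turned these directions, because the groups of the 9 did not overlap. The changes of filter and the replicate block left their fold changes as they were.

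Whether the replicate numbers pair the samples was not settled. Deviations from the group means correlated at 0.09, 0.24 and 0.34 for equal numbers. Replicates 2 and 3 of shExosc8 each correlated best with the control of the same number, while shExosc8 replicate 1 correlated best with shControl replicate 2 (0.16). With the replicate block 5633 genes changed, 4 cytosolic genes fell and 1 rose, and 3 mitochondrial genes fell and 1 rose.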
